A study of Mus musculus with 6 samples.

Results

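The Polycomb genes described here are 35 genes that encode subunits of the Polycomb repressive complexes PRC1 and PRC2, together with a histone demethylase and the subunits of a histone deubiquitinase that act on the same marks. They were chosen by name as members of these complexes, and all 35 were found among the 55487 genes of the count table. RNA of mouse retinas (strain C57BL/6) at embryonic day 16.5 was sequenced in bulk in 6 libraries, of which 3 are labelled Foxp1 cKO and 3 control. Animals of the cKO group are labelled Foxp1 fl/fl with Six3-Cre, a Cre recombinase driven by sequence of Six3, a gene of the developing retina and forebrain. Animals of the control group are labelled Foxp1 fl/fl without Cre, so both groups carry loxP-flanked Foxp1 alleles. A library holds the RNA of both retinas of 1 animal, and a single litter gave all 6. By label, control 3, cKO 2 and cKO 3 were male and the others female.

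PRC2 methylates a lysine in the tail of histone H3, and PRC1 attaches ubiquitin to histone H2A and can compact chromatin. Both marks hold developmental genes silent in cells that should not use them, and in neural progenitors PRC2 is known to shape the timing at which cell types are born. The series title names Jarid2, a PRC2 subunit, as a repressor of Foxp1. The libraries compared here differ in the labelled state of Foxp1, not of Jarid2, so the values describe the Polycomb machinery in retinas with and without the labelled deletion of Foxp1.

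Depth was 23707761 to 25714620 counts per library, and 17275 genes passed the filter on low counts. Values are in CPM, counts scaled to a common library size and corrected for library composition. Foxp1, the targeted gene, had 1213, 1019 and 1096 counts in the libraries labelled control 1 to 3 and 1850, 1816 and 1742 in those labelled cKO 1 to 3, which goes against the labels for a deletion. The counts cover all exons of Foxp1, and which exons are deleted is not given in the sources used here. Xist and Ddx3y went against the labelled sex in the libraries labelled control 2 and cKO 2. All directions below are therefore those of the libraries as labelled. Retinal progenitor markers summed to 8240 to 8452 CPM in the control libraries and 8121 to 8433 CPM in the cKO libraries, with all 9 markers detected. Of the other cell types checked, lens markers had the widest range, at 53.5 to 774 CPM in control and 15.7 to 211 CPM in cKO. The 774 CPM was control 3 alone, with 53.5 in control 1 and 212 in control 2. Muscle markers were also highest in control 3, at 30.0 CPM. All 7 lens markers tested were lower by sign in the cKO libraries. In bulk samples, fewer cells of a type and less RNA per cell cannot be told apart.

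All 35 Polycomb genes passed the filter on low counts, and none passed an edgeR adjusted p of 0.05 between the labelled genotypes. Over all tested genes 135 of 17275, or 0.781%, passed, 0.295% higher and 0.486% lower in the cKO libraries. At an unadjusted edgeR p under 0.05 there were 11 of the 35, against 16.5% of all tested genes. That count was 2 without control 1, 4 without cKO 2, and 8 to 9 without any 1 other library. With the exon length trend described below removed it was 7. The share of all tested genes was not taken in these fits. At an adjusted p of 0.05 limma-voom also called none. DESeq2 called Cbx6 alone, in a test that called 10.5% of the 5574 genes it adjusted. Eed, Cbx7 and Cbx8 were among the members to which DESeq2 gave no adjusted p, so it could not call them. With no filter on low counts edgeR called Cbx6 and Kdm6b, against 2.47% of genes, and without control 3 it called Asxl1, against 4.4%. The log2 fold changes of the 35 genes (cKO over control) ran from -0.23 for Kdm6b to 0.14 for Pcgf1, with a median of -0.03 against 0.001 over all tested genes. The middle 90% of all tested genes ran from -0.36 to 0.31, so no Polycomb gene lay outside it. That range includes many genes measured less precisely. The median level was 75.1 CPM for the 35 genes and 19.8 CPM for all tested genes, and the median standard error 0.058 and 0.084. By sign 16 were higher and 19 lower in the cKO libraries, and over all tested genes 50.1% were higher and 49.9% lower.

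The 3 libraries of one group lay wholly above the 3 of the other for 10 of the 35 genes, against 20.1% of all tested genes. Ezh2, Rbbp4, Pcgf1 and Bap1 were the 4 with higher cKO libraries, against 10.8% of all tested genes. Ezh1, Aebp2, Cbx2, Cbx6, Scmh1 and Asxl1 were the 6 with lower ones, against 9.3%. Without the libraries labelled control 2 and cKO 2, which go against their labelled sex, 15 of 35 did not overlap, against 37.4% of all tested genes, and none passed the edgeR threshold, against 0.0516%.

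**Figure D1:**
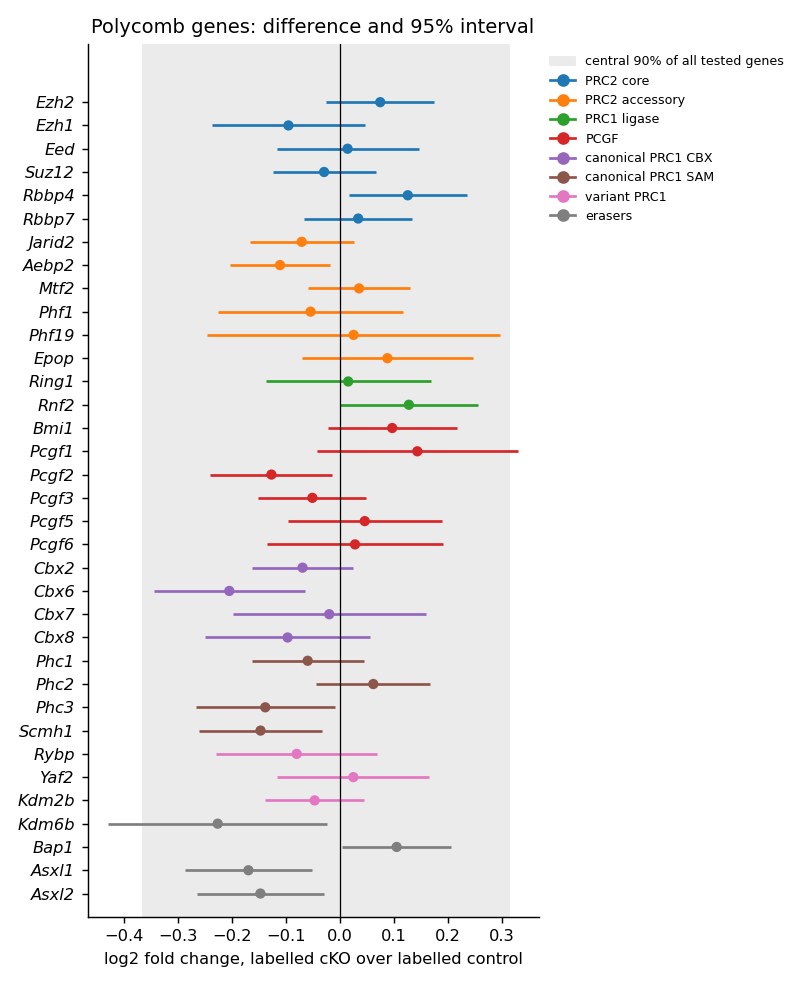
Log2 fold change of each of the 35 Polycomb genes, libraries labelled cKO over libraries labelled control (horizontal axis), with the 95% interval from the edgeR fit as a line and colours by role. The grey band holds the middle 90% of all tested genes, from -0.36 to 0.31, and every point lies inside it.

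Levels between genes were compared as CPM per kilobase of summed exon length, as a mean over all 6 libraries. The range was wide, from 1.20 for Phf19 to 47.0 for Phc2. Against all tested genes Phc2 stood at the percentile 94.8, and Phf19 at 26.7. Summed over the 35 genes, the level was 3565 ± 73.8 CPM (SD, n = 3) in the control libraries and 3507 ± 43.3 CPM (SD, n = 3) in the cKO libraries.

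**Figure D2:**
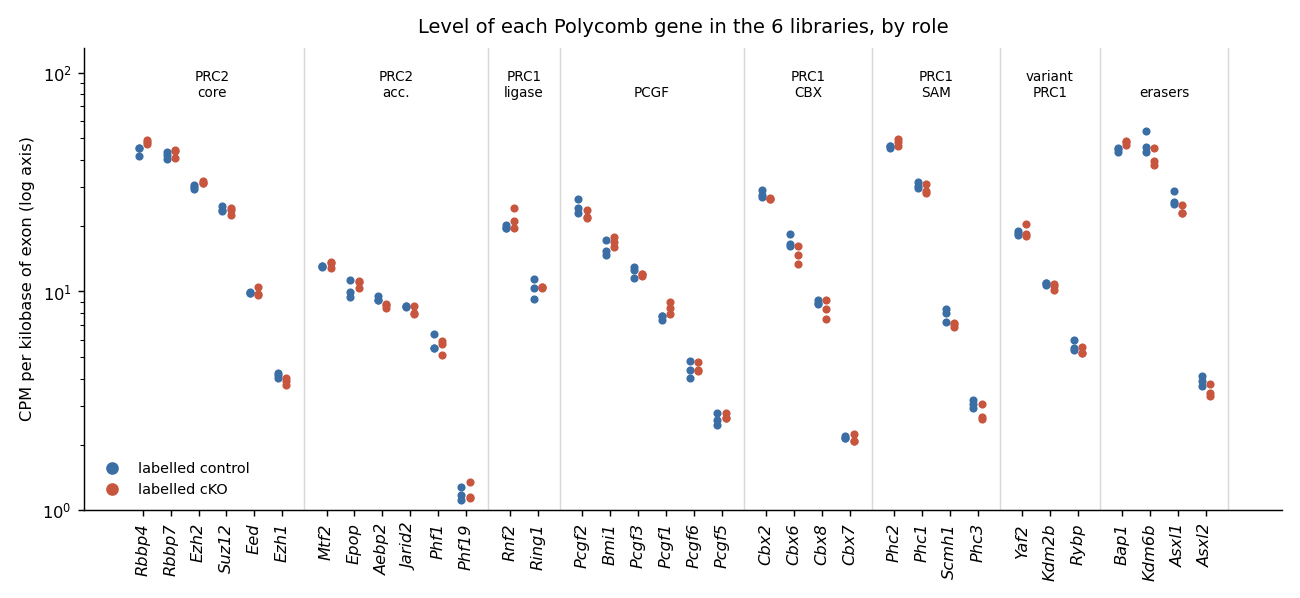
Level of each Polycomb gene in CPM per kilobase of exon (vertical log axis), 1 point per library, grouped by role and ordered within a role by mean level. The 3 control points (blue) and the 3 cKO points (red) of a gene lie close together relative to the distances between genes, for example Ezh2 at 30.7 and Ezh1 at 4.02 on average.

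The catalytic subunit of PRC2 is either Ezh2, typical of dividing cells, or Ezh1, typical of differentiated cells. Ezh2 (ENSMUSG00000029687, chromosome 6, 47530139 to 47595341, minus strand, mm10) was at 195, 200 and 204 CPM in control 1 to 3 and at 208, 214 and 208 CPM in cKO 1 to 3. All 3 cKO libraries lay above the control libraries, by a margin of a few CPM. The log2 fold change was 0.08 with a standard error of 0.05 (edgeR adjusted p 0.478), and the 95% interval ran from -1.74% to 12.9%. Ezh1 (chromosome 11, 101191115 to 101226463, minus strand) showed the reverse order, at 31.6, 30.1 and 30.9 CPM in control 1 to 3 and 29.0, 27.8 and 30.0 CPM in cKO 1 to 3. The nearest libraries of the groups, control 2 and cKO 3, differed by less than any pair of libraries within a group, and the log2 fold change was -0.10 (standard error 0.07, edgeR adjusted p 0.530). Per exon length, Ezh2 exceeded Ezh1 by a ratio of 6.88, 7.40 and 7.34 in control 1 to 3 and 8.01, 8.60 and 7.75 in cKO 1 to 3. The ratio was higher in each cKO library than in any control library. That order follows from the orders of the 2 genes given above, adds nothing to them, and was not tested.

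Eed binds the methylated histone tail and Suz12 holds the complex together. Both are needed for PRC2 activity. Suz12 was at 118 ± 3.70 CPM (SD, n = 3) in control and 115 ± 4.27 CPM (SD, n = 3) in cKO. Eed was at 37.8 ± 0.17 CPM (SD, n = 3) in control and 38.2 ± 1.72 CPM (SD, n = 3) in cKO, so the groups overlapped for both genes. Per kilobase, Eed (9.93) was lower than Suz12 (23.6) and Ezh2 (30.7).

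Rbbp4 and Rbbp7 encode related histone-binding proteins that PRC2 shares with other chromatin complexes. Rbbp4 (chromosome 4, 129307100 to 129335370, minus strand) was at 364, 397 and 395 CPM in control 1 to 3 and at 411, 431 and 420 CPM in cKO 1 to 3. Control 1 was lowest, and every cKO library lay above every control library. The log2 fold change was 0.13 (standard error 0.05, unadjusted p 0.0252, edgeR adjusted p 0.225). X-linked Rbbp7 was at 117, 126 and 122 CPM in control 1 to 3 and 118, 129 and 127 CPM in cKO 1 to 3, and its groups overlapped. The level of the 2 genes per kilobase was alike, at 46.1 for Rbbp4 and 42.4 for Rbbp7.

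Accessory subunits divide PRC2 into forms. Jarid2 and Aebp2 define one form, and the other carries a Polycomb-like protein (Mtf2, Phf1 or Phf19), with which Epop can associate. Jarid2 is a member of the Jumonji family that has lost demethylase activity and helps to recruit PRC2 and stimulate it. Jarid2 (ENSMUSG00000038518, chromosome 13, 44729474 to 44921643, plus strand) was at 82.8, 83.1 and 83.2 CPM in control 1 to 3, and at 83.3, 76.8 and 77.1 CPM in cKO 1 to 3. The library cKO 1 was level with the control libraries, and cKO 2 and cKO 3 lay below them. Jarid2 averaged 83.0 ± 0.24 CPM (SD, n = 3) in control and 79.1 ± 3.67 CPM (SD, n = 3) in cKO, and the log2 fold change was -0.07 (standard error 0.05, edgeR adjusted p 0.488). The spread of the control libraries, 0.28% of their mean, was smaller than the 2.24% that counting alone gives at this depth. The 95% interval ran from 10.9% lower (-10.9%) to 1.79% higher, so a larger change of Jarid2 in either direction lies outside it. With the exon length trend of the libraries removed, the log2 fold change of Jarid2 was -0.007 (edgeR adjusted p 0.967).

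The 250 bases before the first of 2 Jarid2 start sites in RefSeq (GRCm38.p6, chr13:44730524-44730773, plus strand) are shown because the series is named for this gene. Neither of its 2 promoter windows holds any of the 3 motifs searched below.
Jarid2: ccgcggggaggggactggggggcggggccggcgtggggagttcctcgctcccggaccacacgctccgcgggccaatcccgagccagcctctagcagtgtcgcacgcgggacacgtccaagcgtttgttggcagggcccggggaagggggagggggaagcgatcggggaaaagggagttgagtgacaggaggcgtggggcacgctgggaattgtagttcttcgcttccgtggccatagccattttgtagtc

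Aebp2, the partner of Jarid2, was at 93.9, 90.4 and 90.0 CPM in control 1 to 3 and 86.5, 85.0 and 82.5 CPM in cKO 1 to 3. The groups did not overlap, and the log2 fold change was -0.11 (standard error 0.04, unadjusted p 0.0214, edgeR adjusted p 0.209). Removal of the length trend brought it to -0.05 (edgeR adjusted p 0.707). Per exon length Aebp2 exceeded Jarid2 by 1.02 to 1.12 times over the 6 libraries. Among the Polycomb-like genes Mtf2 was the highest, at 13.2 CPM per kilobase, followed by Phf1 at 5.71 and Phf19 at 1.20. Mtf2 was at 74.6, 74.3 and 73.6 CPM in control 1 to 3 and 73.3, 77.2 and 77.6 CPM in cKO 1 to 3. The lowest library was cKO 1, and cKO 2 and cKO 3 were the highest. Phf19, the least abundant member, was at 5.65, 6.45 and 5.94 CPM in control 1 to 3 and 5.75, 5.82 and 6.79 CPM in cKO 1 to 3, from 135 to 172 counts per library, with overlapping groups. Epop was at 23.6 ± 2.13 CPM (SD, n = 3) in control and, in cKO, 25.1 ± 0.99 CPM (SD, n = 3), and the groups overlapped for Mtf2, Phf1, Phf19 and Epop alike. Phf1 shares 1370 exon bases with Cuta on the opposite strand, and no source used here states whether the counting used the strand. Its counts are uncertain for that reason. Rbbp4 shares 782 exon bases with Sync, Kdm2b 627 with Rnf34 and Mtf2 395 with Tmed5 in the same way, and Cbx6 shares 563 with Npcd on its own strand.

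**Figure D3:**
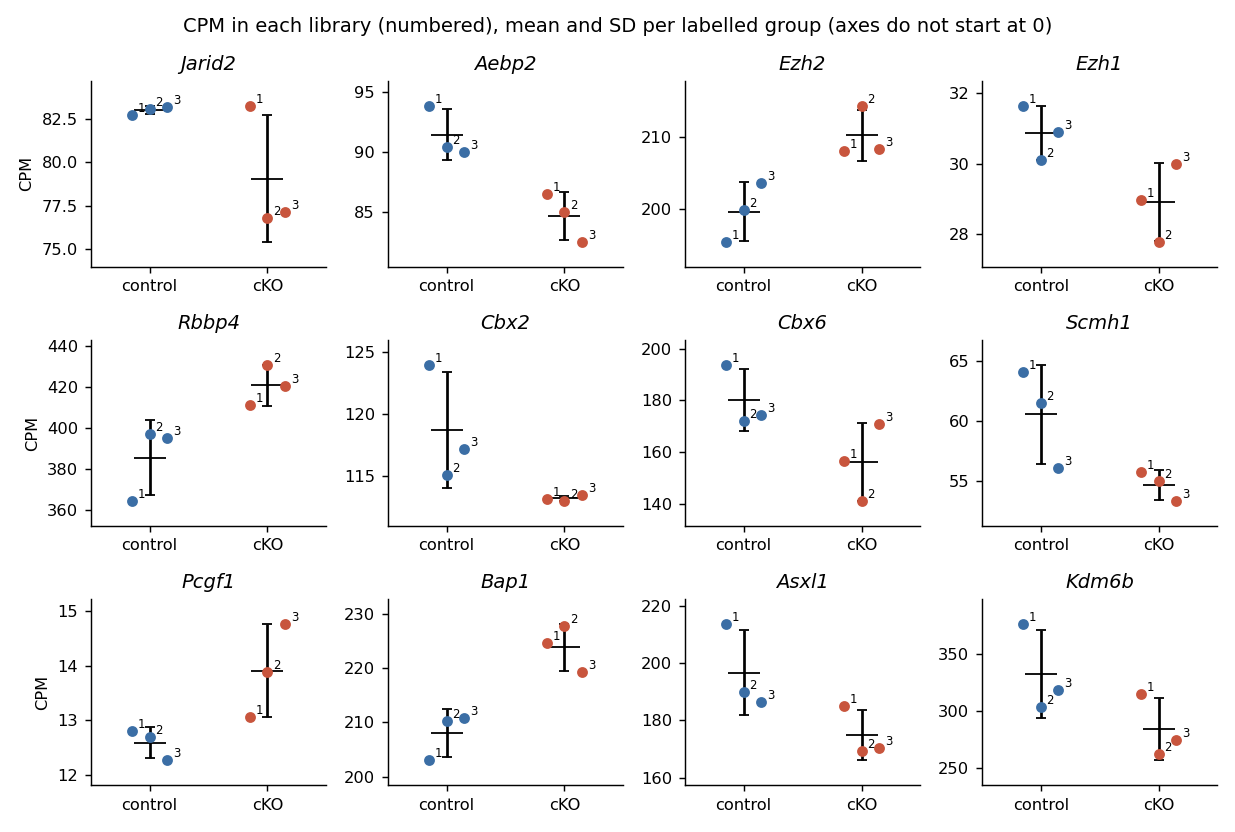
CPM of 12 Polycomb genes (vertical axes, which do not start at 0) in each library, numbered 1 to 3 within the labelled control (blue) and cKO (red) groups, with the mean and SD of each group in black. Jarid2 shows cKO 1 level with the control libraries at 83.3 CPM. Control 1 is the highest library for Aebp2, Ezh1, Cbx2, Cbx6, Scmh1, Asxl1 and Kdm6b and the lowest for Ezh2, Rbbp4 and Bap1.

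PRC1 is built on a ubiquitin ligase, Ring1 or Rnf2 (also called RING1B), joined to 1 of several PCGF proteins. Rnf2 was at 80.1, 80.7 and 82.8 CPM in control 1 to 3 and at 86.3, 99.1 and 80.9 CPM in cKO 1 to 3. The high value of cKO 2 set its mean apart, while cKO 3 lay within the control libraries. The log2 fold change of Rnf2 was 0.13 (standard error 0.06, unadjusted p 0.0488, edgeR adjusted p 0.300), and without cKO 2 it was 0.04. Ring1 was at 37.2, 33.6 and 29.9 CPM in control 1 to 3 and 34.0, 34.2 and 33.6 CPM in cKO 1 to 3, and all cKO libraries lay within the range of control. Per exon length Rnf2 exceeded Ring1 by 1.69 to 2.28 times over the 6 libraries.

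The PCGF proteins decide which PRC1 forms. Pcgf2 and Bmi1 belong to canonical PRC1, which binds the mark of PRC2 through a CBX protein, and the others to variant PRC1, which does not need that mark. The 2 canonical genes were the highest of the 6 per kilobase, with Pcgf2 at 23.4 and Bmi1 at 16.3, against 12.1 for Pcgf3, 8.03 for Pcgf1, 4.44 for Pcgf6 and 2.65 for Pcgf5. Pcgf2 was at 93.2, 80.5 and 84.5 CPM in control 1 to 3 and at 83.5, 76.1 and 76.8 CPM in cKO 1 to 3. The library cKO 1 lay between the control libraries, so the groups overlapped, and the log2 fold change was -0.13 (standard error 0.05, unadjusted p 0.0300, edgeR adjusted p 0.242). Bmi1 had the opposite sign, at 62.5 ± 5.09 CPM (SD, n = 3) in control and, in cKO, 66.9 ± 3.37 CPM (SD, n = 3), with overlapping groups. Pcgf1, of the variant complex that contains Kdm2b, was at 12.8, 12.7 and 12.3 CPM in control 1 to 3 and 13.1, 13.9 and 14.8 CPM in cKO 1 to 3. Its groups did not overlap, but at 306 counts in control 1 its standard error was 0.09 and the log2 fold change of 0.14 had an edgeR adjusted p of 0.461. Pcgf5 was at 32.7, 30.9 and 35.2 CPM in control 1 to 3 and 33.3, 35.2 and 33.5 CPM in cKO 1 to 3. Pcgf3, Pcgf5 and Pcgf6 had log2 fold changes of -0.05, 0.05 and 0.03, and their groups overlapped.

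The CBX proteins carry the chromodomain by which canonical PRC1 reads the methylated histone. The 4 CBX genes described were all lower by sign in the cKO libraries, with log2 fold changes of -0.07 for Cbx2, -0.20 for Cbx6, -0.02 for Cbx7 and -0.10 for Cbx8. Cbx2 was the highest at 27.2 CPM per kilobase, ahead of Cbx6 at 15.8, Cbx8 at 8.62 and Cbx7 at 2.14. Cbx6 (chromosome 15, 79823896 to 79834688, minus strand) had the lowest edgeR adjusted p of the 35 genes, at 0.131, with an unadjusted p of 0.00678. It was at 194, 172 and 175 CPM in control 1 to 3 and at 156, 141 and 171 CPM in cKO 1 to 3. The nearest libraries of the 2 groups, control 2 and cKO 3, differed by less than 1 CPM, although the groups did not overlap. The log2 fold change of Cbx6 became -0.13 with the length trend removed (edgeR adjusted p 0.366) and -0.14 without cKO 2 (edgeR adjusted p 0.525). Cbx2 was at 124, 115 and 117 CPM in control 1 to 3 and at 113, 113 and 113 CPM in cKO 1 to 3, with an edgeR adjusted p of 0.484. Cbx7 was at 13.9, 14.2 and 13.9 CPM in control 1 to 3 and 14.5, 13.5 and 13.4 CPM in cKO 1 to 3, and its groups overlapped.

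The Phc proteins and Scmh1 carry a SAM domain through which PRC1 complexes join into larger assemblies. Phc2 was the most abundant Polycomb gene per kilobase, at 47.0, with Phc1 at 29.9, Scmh1 at 7.46 and Phc3 at 2.91. Scmh1 was at 64.1, 61.5 and 56.1 CPM in control 1 to 3 and at 55.8, 55.0 and 53.4 CPM in cKO 1 to 3. Control 3 came within 1 CPM of cKO 1 without overlap, and the log2 fold change was -0.15 (standard error 0.05, unadjusted p 0.0133, edgeR adjusted p 0.171). Phc3, with 17485 exon bases the longest of the 35 genes, was at 55.7, 53.4 and 51.1 CPM in control 1 to 3 and at 46.5, 45.7 and 53.4 CPM in cKO 1 to 3. The library cKO 3 lay among the control libraries. For Phc3 the log2 fold change was -0.14 (edgeR adjusted p 0.263), and it became -0.01 once the length trend was removed (edgeR adjusted p 0.965). Phc2 was at 327, 321 and 326 CPM in control 1 to 3 and 351, 339 and 327 CPM in cKO 1 to 3, and only cKO 3 lay among the control libraries. Phc1 and Phc2 had log2 fold changes of -0.06 and 0.06 with overlapping groups.

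Variant PRC1 contains Rybp or its paralogue Yaf2, and one variant form is brought to unmethylated CpG islands by Kdm2b. Yaf2 stood above Rybp per kilobase, at 18.7 against 5.50, and Kdm2b was at 10.7. Yaf2 was at 34.0, 34.8 and 35.5 CPM in control 1 to 3 and 33.6, 38.3 and 34.2 CPM in cKO 1 to 3. Rybp was at 28.6, 25.6 and 26.1 CPM in control 1 to 3 and 26.3, 24.9 and 24.8 CPM in cKO 1 to 3. Control and cKO libraries interleaved for both paralogues. Kdm2b was at 118 ± 0.96 CPM (SD, n = 3) in control and, in cKO, 114 ± 3.27 CPM (SD, n = 3). None of the 3 had an unadjusted edgeR p under 0.05, and the groups overlapped for each.

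The remaining 4 genes oppose or trim the marks. Kdm6b removes the methyl groups that PRC2 adds, and Bap1 with an Asxl partner removes ubiquitin from histone H2A. All 4 had an unadjusted edgeR p under 0.05, against 16.5% of all tested genes, and none passed after adjustment. Kdm6b (chromosome 11, 69398508 to 69413675, minus strand) was at 376, 303 and 318 CPM in control 1 to 3 and at 315, 263 and 275 CPM in cKO 1 to 3. It had the most variable control libraries of the 35 genes, with an SD of 11.6% of the mean, and cKO 1 lay above control 2. The log2 fold change of Kdm6b was -0.23 (standard error 0.09, unadjusted p 0.0327, edgeR adjusted p 0.251), and without control 1 it was -0.13 (edgeR adjusted p 0.518).

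Bap1, the catalytic subunit of the deubiquitinase, was at 203, 210 and 211 CPM in control 1 to 3 and at 225, 228 and 219 CPM in cKO 1 to 3. Every cKO library lay above every control library, with a log2 fold change of 0.11 (standard error 0.05, unadjusted p 0.0417, edgeR adjusted p 0.280). Its partner Asxl1 had the opposite sign, at 214, 190 and 186 CPM in control 1 to 3 and 185, 169 and 170 CPM in cKO 1 to 3. The gap between control 3 and cKO 1 was just over 1 CPM, and the log2 fold change of Asxl1 was -0.17 (standard error 0.06, unadjusted p 0.00685, edgeR adjusted p 0.132). Asxl2 was at 65.9, 58.7 and 62.5 CPM in control 1 to 3 and at 55.1, 53.4 and 60.4 CPM in cKO 1 to 3. Its groups overlapped, and the log2 fold change of -0.15 (edgeR adjusted p 0.186) became -0.03 with the length trend removed (edgeR adjusted p 0.875). Per exon length Asxl1 exceeded Asxl2 by 6.04 to 7.20 times over the 6 libraries.

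The authors' deposited table of their own cKO against control comparison lists all 35 genes and gives an adjusted p for 28 of them. Of the 35, 33 have in the authors' deposited table the opposite sign to the one found here, and the exceptions are Ring1 and Pcgf6. The share of opposite signs over all genes was not taken, so the count is not read as a trait of Polycomb genes. Foxp1 itself is at -0.60 in the authors' deposited table and at 0.65 here (edgeR adjusted p 4.63e-05). Xist had 13 counts in control 2, labelled female, and 14143 in cKO 2, labelled male. If each control library were exchanged with the cKO library of its number, Xist and Ddx3y would match the labelled sex throughout. An exchange of the group labels would turn every direction given here, and it was not tested. Only Asxl1 passes 0.05 in the authors' deposited table, with a log2 fold change of 0.21 and an adjusted p of 0.0134. In the authors' deposited table as a whole 8.97% of the genes with an adjusted p pass. Jarid2 is listed at 0.08 with an adjusted p of 0.508, Kdm6b at 0.28 with 0.104, Cbx6 at 0.20 with 0.0740 and Rbbp4 at -0.15 with 0.0527 in the authors' deposited table.

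The log2 fold changes of these libraries vary with the summed exon length of a gene, and Polycomb genes are long. They had a median of 5297 exon bases, against 3922 for all tested genes, and 8 of the 35 lay in the decile of longest genes, at 9467 bases and above. In that decile the median log2 fold change over all genes was -0.09, and 80.0% of genes were lower in the cKO libraries. The 8 Polycomb genes there also had a median of -0.09. Genes are not independent replicates, but as a description exon length and log2 fold change had a Spearman rho across the 35 genes of -0.42, against -0.27 over all tested genes with a length. With the trend of each library removed, the median of the 35 genes was -0.007, none passed the edgeR threshold, against 0.22% of all tested genes, and Rbbp4 had the lowest adjusted p, at 0.122. Its log2 fold change was then 0.18. Rbbp4 has 8744 exon bases, and in its length decile 68.5% of all genes were lower in the cKO libraries.

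**Figure D4:**
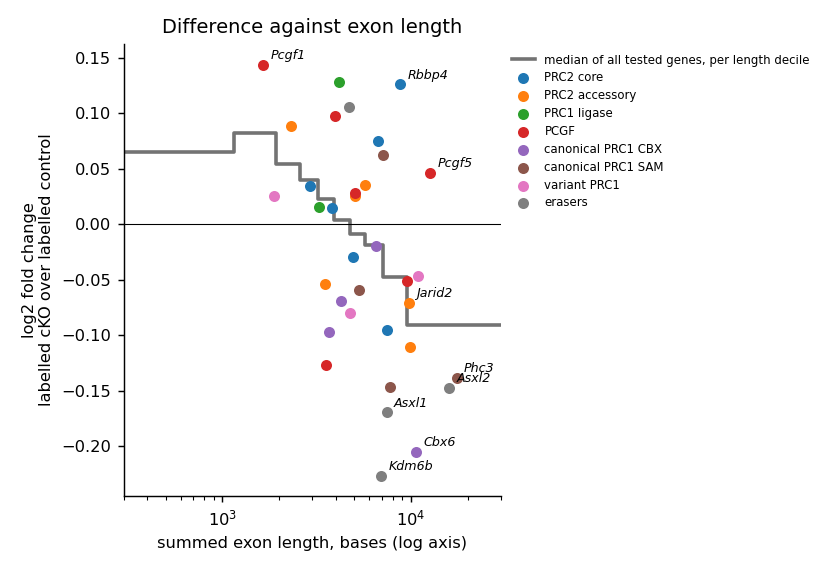
Log2 fold change (libraries labelled cKO over control) of the 35 Polycomb genes against summed exon length in bases (log axis), coloured by role, with the median of all tested genes in each length decile as a grey step line. The step line falls from 0.08 in the second decile to -0.09 in the last, and Jarid2 lies close to it while Rbbp4, Kdm6b and Cbx6 lie farther away.

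Other genes of the same regulatory system were read from the same fit. Of 32 further Polycomb partners 31 were tested and none passed the edgeR threshold, with 10 of the 31 at an unadjusted p under 0.05, against 16.5% of all tested genes, and a median log2 fold change of -0.07. The 4 with the highest CPM, which is not corrected for length, had log2 fold changes of -0.25 (Hcfc1, a cofactor bound by Bap1, edgeR adjusted p 0.0677), -0.11 (Dcaf7), 0.03 (Csnk2a1) and -0.17 (Ogt). Per kilobase the highest partner was Skp1a, at 87.8 CPM, and its log2 fold change was 0.18 (edgeR adjusted p 0.112). Trithorax and MLL/SET1 genes, whose products oppose Polycomb by methylating another lysine of histone H3, had 0 higher and 1 lower past the threshold among 16 tested, against 0.295% and 0.486% of all tested genes. The median log2 fold change of the 16 was -0.14, and 13 were lower by sign, against 49.9%. An unadjusted p under 0.05 was found for 7, against 16.5%, and the cKO libraries lay wholly below the control libraries for 8, against 9.3%. The median exon length of the 16 was 9282.5 bases, in the decile of 7095 to 9462 bases. In that decile 68.5% of all genes were lower in the cKO libraries, and in the decile above it 80.0%. The shares set beside the 16 are of genes of all lengths, and the part of length in these counts was not tested. The 1 gene was Kmt2c, a very large methyltransferase of enhancers (chromosome 5, 25271798 to 25498783, minus strand). It was at 258, 238 and 222 CPM in control 1 to 3 and at 204, 194 and 210 CPM in cKO 1 to 3, without overlap. The log2 fold change of Kmt2c was -0.24 (standard error 0.06, edgeR adjusted p 0.0487). With 20291 exon bases it too lay in the decile of longest genes, and with the length trend removed it was at -0.09 (edgeR adjusted p 0.400). The Kmt2c call was also lost without control 1 (edgeR adjusted p 0.191), control 2 (0.144), cKO 1 (0.0505), cKO 2 (0.364) or cKO 3 (0.118), and without the libraries labelled control 2 and cKO 2 (0.714), and was kept without control 3 (0.00565).

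Jumonji genes, the family to which Jarid2 and Kdm6b belong, had none of 22 tested past the edgeR threshold, 6 at an unadjusted p under 0.05, against 16.5% of all tested genes, and a median log2 fold change of -0.08. The 4 with the highest CPM, which favours long genes, had log2 fold changes of 0.02 (Kdm5c), -0.13 (Kdm5b), -0.19 (Kdm2a) and -0.09 (Kdm3b). The standard error of X-linked Kdm5c was 0.22. Kdm5c was at 320, 235 and 226 CPM in control 1 to 3 and 295, 287 and 211 CPM in cKO 1 to 3. Per kilobase the highest was Kdm4a, at 37.1 CPM, followed by Kdm5c at 36.9. Kdm6a, the X-linked counterpart of Kdm6b that escapes X inactivation, had 2347, 1600 and 1334 counts in control 1 to 3 and 2382, 2258 and 1435 in cKO 1 to 3. It was high in the libraries with Xist counts of 14143 to 17599 (control 1, cKO 1 and cKO 2) and low in the other 3, which had 1 to 13. Its Y-linked copy Uty had 0, 651 and 524 counts in control 1 to 3 and 0, 1 and 593 in cKO 1 to 3, the reverse pattern. Both genes of the demethylase family overlapped between the genotype labels.

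Hox genes are the best known targets of Polycomb silencing. Of 39 Hox genes, 29 had no count in any library, and none passed the filter on low counts. All Hox genes together had 8, 3 and 2 counts in control 1 to 3 and 7, 5 and 13 in cKO 1 to 3, and the groups overlapped. A gene with no count can have a level of up to 0.117 to 0.127 CPM, the value of 3 counts in each library, by counting error alone. Of 20 regulators of other lineages and cell cycle inhibitors that Polycomb is known to silence outside their tissue, 2 were tested and neither passed. One of these, Eomes, is also a gene of retinal neurons and was at 65.0 ± 1.54 CPM (SD, n = 3) in control and, in cKO, 65.1 ± 4.93 CPM (SD, n = 3). The inhibitor Cdkn2a, a classical Polycomb target, had 7, 12 and 3 counts in control 1 to 3 and 6, 3 and 6 in cKO 1 to 3 and was too low for the test.

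Promoter windows, from 250 bases before to 50 bases after each RefSeq start (GRCm38.p6), were found for 29 of the 35 Polycomb genes. They were searched on both strands for the letters TGTTTAC, the core bound by forkhead factors such as Foxp1, and for TTCCCGC and TTGGCGC, 2 forms of the site of E2F factors, which drive genes of dividing cells. No 2 matches in the Polycomb genes overlap. Forkhead letters occurred in 3 of the 29 genes (10.3%), against 2.95% of the 11623 tested genes with a window. Counted by window, they occurred in 3 of the 41 windows of the Polycomb genes, against 3.65% of all windows. These 3 matches are shown with the motif, or its reverse complement, in capitals, because Foxp1 is the factor the study deletes. They lie at chr7:89981109-89981137 (Eed, minus strand), chr5:122989126-122989154 (Kdm2b, minus strand) and chr19:36348267-36348295 (Pcgf5, plus strand).
Eed: tgagaagttccGTAAACActaactcgaag
Kdm2b: atcggcaacaaTGTTTACgttccggggat
Pcgf5: ggcagcaatgcGTAAACAaaccctctggc

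The 3 genes with forkhead letters had log2 fold changes of 0.01 (Eed), -0.05 (Kdm2b) and 0.05 (Pcgf5), and none had an unadjusted edgeR p under 0.05. TTCCCGC occurred in 5 of the 29 genes (17.2%), against 9.70% of tested genes, and TTGGCGC in 3 (10.3%), against 5.08%. These are descriptions of letters, and the windows of the Polycomb genes had a median GC content of 65.7%, against 60.7% for tested genes. The matches in 3 abundant PRC2 genes are shown, Suz12 at chr11:79992877-79992905 (plus strand), Ezh2 at chr6:47595009-47595037 (minus strand) and Rbbp4 at chr4:129335368-129335396 (minus strand), again with the letters in capitals.
Suz12: gacccctcattTTCCCGCgaattcagttc
Ezh2: ggttgctgcgtTTGGCGCtcggtccggtc
Rbbp4: attggtcggtgTTGGCGCgaaggcacgcg

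Markers of other cell types were read beside these values. Endothelial markers summed to 328 to 354 CPM in the control libraries and 297 to 306 CPM in the cKO libraries. Of the 6, 4 (Pecam1, Cdh5, Tek and Emcn) were below 1 CPM on average, so the sum rests on Kdr and Cldn5. Of the 4 endothelial markers tested, 2 were higher and 2 lower by sign in the cKO libraries. Microglial markers summed to 22.4 to 27.0 CPM against 20.2 to 21.2 CPM, with 1 of 7, Aif1, below 1 CPM and all 7 lower by sign. Neither of these sums overlapped between groups, and no single marker of these lists passed the edgeR threshold. Among all tested genes, taken singly, 20.1% did not overlap between groups. Markers of retinal precursors and neurons summed to 1585 to 1640 CPM in control and 1602 to 1690 CPM in cKO. Of the 10, 4 were higher and 6 lower by sign, and 3 passed the edgeR threshold, against 0.781% of all tested genes. Atoh7, a factor of early neurogenic progenitors, rose in the libraries labelled cKO (log2 fold change 0.30, edgeR adjusted p 0.0182). Prox1 and Tfap2b, factors of horizontal and amacrine cells, fell, with log2 fold changes of -0.24 and -0.25 (edgeR adjusted p 0.0172 and 0.0329). Pigment epithelium markers summed to 69.7 to 117 CPM in control and 39.4 to 116 CPM in cKO, and erythroid markers to 74.3 to 147 CPM and 111 to 180 CPM. All 7 pigment epithelium markers tested were lower by sign in cKO, and all 6 erythroid markers tested were higher. The part of these cells in the Polycomb values was not tested.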

How the data were processed

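The authors deposited whole-number counts per gene, which are not normalized. Tools listed in the submitters' processing notes are featureCounts 1.5.1, STAR 2.7.6a, cutadapt 2.8 and DESeq2 1.32.0, and the listed build is mm10; how they were set is not stated there. The authors' deposited table of their comparison gives, per the file headers, mean normalized counts (a signal), log2 fold changes and their errors, the statistic (a score), p-values and adjusted p-values. The adjusted value is missing for 13487 genes.

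CPM values use TMM-scaled library sizes. Genes were kept by filterByExpr and tested with edgeR 4.0.16 (R 4.3.3): TMM, genotype alone, robust quasi-likelihood, Benjamini-Hochberg over all 17275 tested genes, threshold 0.05. Intervals are 95% t intervals of that fit. Positions and exon lengths are from GENCODE M21 (same build), which held 55227 of the genes. Promoter windows are from RefSeq. Alternatives were limma-voom (limma 3.58.1), DESeq2 1.42.0, other normalizations and filters, covariates, left-out libraries, and removal of the exon length trend (lowess, span 0.3). The script was tested on simulated counts with known changes. It recovered 24% of 1.25-fold, 49.0% of 1.5-fold, 72% of 2-fold and 100% of 4-fold changes, with 19 false calls among 141. No Polycomb gene differed by more than 1.17-fold (Kdm6b), so changes of that size would mostly be missed.

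The members and lists were chosen with earlier results of these data known. All 35 members are named. Values in each library are given for Jarid2, for members past the threshold or without overlap, for the highest and lowest per kilobase in a role and for paralogue pairs; Kdm6b was added after its values were seen. The other lists give called genes or the 4 with the highest CPM, and the highest per kilobase was added afterwards. Depth was 23707761 to 25714620 counts per library. The labels give each replicate as a separate animal, and no 2 libraries of a group agreed within sampling noise (chi-square over its degrees of freedom 7.39 to 12.5).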

Additional observations from a re-analysis of the deposited data

How the results depend on the processing

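In 18 settings, the main one included, every log2 fold change of Cbx6, Kdm6b, Asxl1, Rbbp4, Bap1, Aebp2, Scmh1, Ezh2, Ezh1 and Jarid2 kept its sign, and Jarid2 was called in none (-0.11 to -0.01). All of these but Kdm6b and Jarid2 had groups without overlap, so leaving out libraries could hardly turn their signs.

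The number of Polycomb genes past the threshold, 0, was 2 with no filter on low counts (Cbx6 and Kdm6b), 1 with DESeq2 (Cbx6), and 3 with the replicate number as a replicate block (Asxl1, Cbx6 and Kdm6b, where 6.16% of all genes were called). It was 0 to 1 with each library left out; the 1 was Asxl1, at an edgeR adjusted p of 0.0497 without control 3. Over all genes, 135 became 742 with no filter, 83 with a filter at 1 CPM, 10 without robust estimation, 588 with DESeq2, 13 with limma-voom, 1065 with the replicate block, 9 without the libraries labelled control 2 and cKO 2, 38 with the length trend removed, and 19 to 778 with each library left out. Of the related chromatin genes 1 was called, 13 with no filter and with DESeq2, 16 with the replicate block, 0 to 12 with each library left out, and 0 with upper quartile scaling, a filter at 1 CPM, no robust estimation, limma-voom, a covariate for labelled sex, the length trend removed, and without the libraries labelled control 2 and cKO 2. The cause was not tested. Same-numbered libraries deviated together with correlations of 0.085, -0.052 and 0.199, and 3 of 6 libraries correlated best with their own number, so the numbers were not taken to pair the samples.

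The median log2 fold change of the 35 genes, -0.03, was -0.00704 with the length trend removed and -0.0546 to -0.0168 with each library left out. The count of genes without overlap, 10, was 10 with RLE and with upper quartile scaling. Without the libraries labelled control 2 and cKO 2, an alternative chosen after seeing the data, it was 15, a fit with fewer libraries.

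Sign changes touched genes near 0 that no setting called. With the length trend removed the log2 fold changes were 0.00522 for Cbx7, -0.00564 for Eed, 0.0294 for Kdm2b, 0.0117 for Pcgf3, -0.00421 for Rbbp7, -0.0177 for Ring1 and -0.0402 for Yaf2. The covariate for labelled sex used the labels, which Xist and Ddx3y went against in control 2 and cKO 2. With it the log2 fold changes were 0.00158 for Cbx7 and -0.000757 for Yaf2. Without the libraries labelled control 2 and cKO 2 they were 0.00758 for Cbx7, -0.0229 for Pcgf5, -0.0188 for Pcgf6 and -0.0336 for Yaf2. With 1 library left out, the range was -0.0565 to 0.00394 for Cbx7, -0.0205 to 0.036 for Eed, -0.0339 to 0.0987 for Pcgf6, -0.0926 to 0.0235 for Phf1, -0.053 to 0.0794 for Phf19, -0.0583 to 0.0956 for Ring1, -0.0532 to 0.00200 for Suz12 and -0.0341 to 0.0608 for Yaf2. Depth limits the least abundant member most: Phf19 had a standard error of 0.13.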
